A study of Mus musculus with 12 samples.

Results

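The 10 genes described here mark pluripotent stem cells and were followed through 12 RNA-seq libraries of sorted mouse muscle progenitors: Pou5f1, Nanog, Sox2, Zfp42, Dppa5a, Esrrb, Tdgf1, Utf1, Klf4 and Sall4. They were taken by symbol, and all 10 were found among the 23284 symbols of the expression table. The study derives muscle stem cells from pluripotent ones, so these genes are a readout of the starting state in the sorted cells. The libraries formed 4 groups of 3. The teratoma group held α7-integrin+ VCAM+ cells from teratomas aged 3 weeks, which are mixed-tissue tumours grown from pluripotent cells. The transplant group held cells with the same surface markers, sorted from tibialis anterior muscle 1 month after such teratoma-derived cells had been put there. Whole E14.5 embryos gave the embryo group, and hindlimbs of male mice aged 8 weeks gave the adult group. All 4 groups carry the strain label 129P2/OlaHsd, and CD31+ endothelial cells and CD45+ leukocytes were gated out of every sort. The labels name neither the pluripotent cell line, nor the host of the transplants, nor a marker that told donor from host cells. Libraries of 1 group are described as biological replicates, with nothing on whether each had its own animal, and p-values cover no more than the spread among them.

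Mouse pluripotent cells are held in their state by a small circuit of transcription factors. Pou5f1 (OCT4), Sox2 and Nanog bind together at many enhancers, their own included, while Esrrb, Klf4, Zfp42 (REX1) and Sall4 belong to the wider naive network, and the cytokine LIF feeds into it through STAT3. When cells leave pluripotency most of these genes are shut off, but Sox2 and Klf4 are used again in differentiated tissues, Sox2 in neural and several epithelial progenitors and Klf4 in epithelia, vessels, fibroblasts and myeloid cells. Residual pluripotent cells are of interest in such preparations because they can form teratomas after transplantation.

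Promoter sequences are shown for Nanog, which stayed near 0 in these libraries, and for Sox2 and Klf4, which did not. They are RefSeq windows on GRCm38.p6 (the assembly of mm10), 300 bases each and overlapping a transcript start, written 5′ to 3′ on the gene's strand. Capitals mark matches on either strand to GGGCGG (the GC box of SP and KLF factors), ATGCAAA (most of the octamer bound by OCT4) and CATTGTN (a SOX-type element), and where matches touch or overlap they run together.
Nanog, chr6:122707239-122707538, plus strand: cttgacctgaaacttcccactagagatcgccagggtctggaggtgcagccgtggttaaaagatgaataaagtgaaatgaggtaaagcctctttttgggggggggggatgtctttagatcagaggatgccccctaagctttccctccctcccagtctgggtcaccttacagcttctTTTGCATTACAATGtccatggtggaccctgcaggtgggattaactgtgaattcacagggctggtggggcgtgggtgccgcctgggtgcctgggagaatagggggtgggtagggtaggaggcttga
Sox2, chr3:34649745-34650044, plus strand: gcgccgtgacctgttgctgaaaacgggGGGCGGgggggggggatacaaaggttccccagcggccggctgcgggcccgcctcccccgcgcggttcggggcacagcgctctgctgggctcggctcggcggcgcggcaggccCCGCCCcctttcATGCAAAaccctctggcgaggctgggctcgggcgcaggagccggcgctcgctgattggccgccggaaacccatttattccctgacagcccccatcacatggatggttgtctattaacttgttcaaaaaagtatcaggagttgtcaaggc
Klf4, chr4:55532426-55532725, minus strand: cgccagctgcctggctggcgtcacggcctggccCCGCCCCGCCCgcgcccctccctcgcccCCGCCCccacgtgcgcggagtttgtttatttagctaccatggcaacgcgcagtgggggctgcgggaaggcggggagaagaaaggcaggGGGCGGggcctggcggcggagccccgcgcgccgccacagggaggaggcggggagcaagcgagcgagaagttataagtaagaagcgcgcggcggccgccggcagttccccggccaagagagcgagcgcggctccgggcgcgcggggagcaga

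The Nanog window held a SOX-type element joined to the octamer letters, CATTGTN followed at once by ATGCAAA when read on the other strand. Among 32544 distinct promoter windows of this length 2 held that joined motif. Both were Nanog windows that overlap, and the match was the same site in each. Of the single motifs, ATGCAAA was found in 4.65% of the windows, CATTGTN in 12.3% and GGGCGG in 35.9%. Klf4 had 4 matches to the GC box and Sox2 had 2, but so did Utf1 (4) and Zfp42 (2), whose expression stayed near 0. The Klf4 window held 40 CpG dinucleotides, more than 96.1% of all windows, and the Sox2 window 27, more than 84.4%, against a median of 7. Windows of Pou5f1, Nanog, Zfp42, Esrrb, Tdgf1 and Utf1 held from 4 CpG (Nanog) to 17 (Utf1). Windows were matched for 8 of the 10 genes, leaving Dppa5a and Sall4. These counts describe letters in a fixed window and say nothing of binding in these cells.

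Of the 10 genes, 8 were close to 0 in all 4 groups. Pou5f1, Nanog, Zfp42, Dppa5a, Esrrb, Tdgf1, Utf1 and Sall4 never reached 1 FPKM (fragments scaled to transcript length and library total, the unit the authors deposited), and 80 of their 96 values were listed at 0 (83.3%). The 16 values above 0 ran from 0.0465 to 0.790, with a median of 0.285. They were spread over the groups, with 4 of 24 teratoma values, 3 of 24 transplant values, 6 of 24 embryo values and 3 of 24 adult values. Beside this, from 33.6% (teratoma replicate 1) to 45.4% (embryo replicate 2) of all symbols in a library were listed at 0. Read depth was unknown, so no detection limit can be given, and an exact 0 in such a table can also be a failed estimate. Of the 16 values, 7 came from stem-cell-derived and 9 from native libraries, and their source was not tested. In bulk RNA, fewer cells of a kind and less RNA per cell cannot be told apart.

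**Figure D1:**
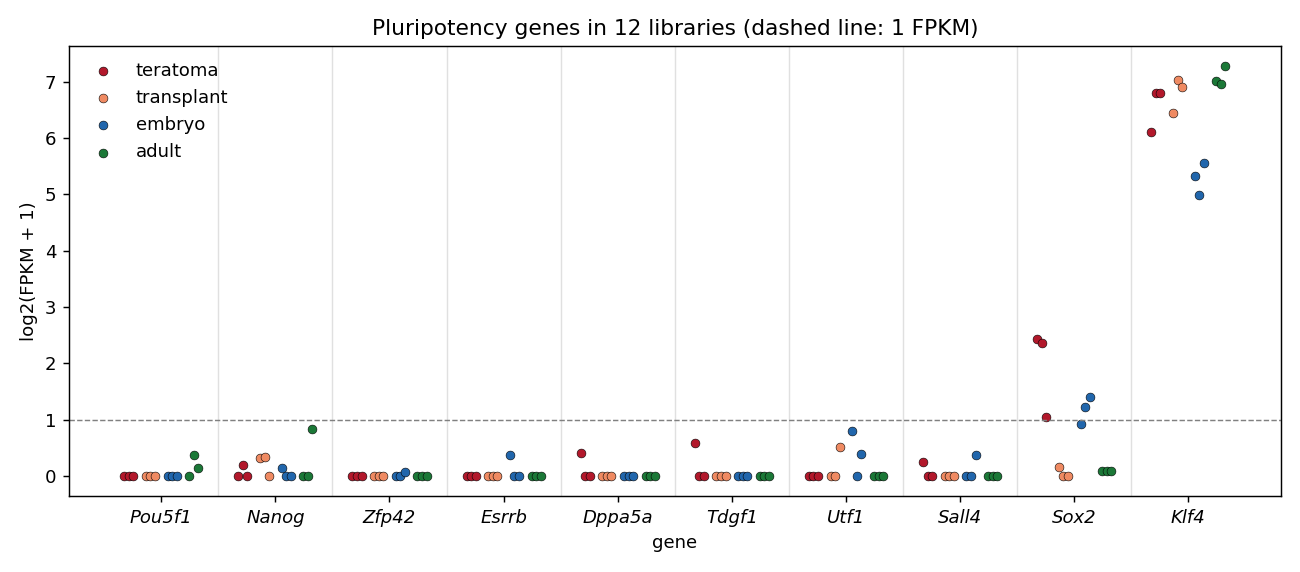
Level of each of the 10 genes in each of the 12 libraries, on the vertical axis as log2(FPKM + 1), with 1 point per library coloured by group. The 8 genes on the left lie below the dashed line at 1 FPKM in every library, Sox2 is above it in teratoma and in 2 embryo libraries, and Klf4 lies between 30.6 and 154 FPKM throughout.

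Among the core factors, Pou5f1 (chromosome 17 from 35506018 to 35510772 in mm10), the POU factor without which the pluripotent state is lost, was listed at 0 in all 3 teratoma, all 3 transplant and all 3 embryo libraries. It was above 0 only in adult replicates 2 and 3, at 0.299 and 0.0954 FPKM, so the adult cells and not the stem-cell-derived ones held its few values. Nanog (chromosome 6 from 122707489 to 122714633), the homeobox factor of the naive state, was above 0 in 5 libraries. Its values were 0, 0.138 and 0 in teratoma, 0.252, 0.266 and 0 in transplant, 0.0979, 0 and 0 in embryo and 0, 0 and 0.790 in adult. The adult value of 0.790 was the highest of all 96. The annotation also lists processed pseudogenes of Nanog, Nanog-ps1 and Nanog-ps2, and how the authors assigned reads shared with such copies is not given in the sources used here, so the low Nanog values are uncertain.

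Zfp42, Esrrb, Sall4 and Utf1 were above 0 in 1 to 3 libraries each. Zfp42 (chromosome 8 from 43295063 to 43306980), a zinc finger protein used as a marker of the naive state, was above 0 in embryo replicate 3 alone, at 0.0465. Esrrb (chromosome 12 from 86361117 to 86521628), an orphan nuclear receptor of that state, was above 0 in embryo replicate 1 alone, at 0.284. Sall4 (chromosome 2 from 168748332 to 168767943), a zinc finger partner of OCT4, had 0.183 in teratoma replicate 1 and 0.287 in embryo replicate 3. Utf1 (chromosome 7 from 139943789 to 139945112), a chromatin-bound factor of undifferentiated cells, had 0.731 and 0.315 in embryo replicates 1 and 3 and 0.429 in transplant replicate 3. None of these 4 genes had a value above 0 in more than 1 library of the stem-cell-derived groups.

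Dppa5a and Tdgf1 were the genes seen in teratoma alone. Dppa5a (chromosome 9 from 78367052 to 78368177), an RNA-binding protein of early embryos and embryonic stem cells, had 0.319, 0 and 0 in teratoma and was listed at 0 in the other 9 libraries. Tdgf1 (chromosome 9 from 110939603 to 110946158), which encodes the Nodal co-receptor Cripto, was at 0.497, 0 and 0 in teratoma and again at 0 elsewhere. Both values, with that of Sall4, belonged to teratoma replicate 1, where the 8 genes summed to 1.00 FPKM, against 0.138 and 0 in teratoma replicates 2 and 3. The same sum was 0.252, 0.266 and 0.429 in transplant, 1.11, 0 and 0.648 in embryo and 0, 0.299 and 0.885 in adult, so the groups overlapped. Unprocessed pseudogenes (Dppa5b and Dppa5c) and processed ones (Tdgf1-ps1 and Tdgf1-ps2) make single low values of these genes uncertain too.

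Tests used limma on log2(FPKM + 1) over the 12699 genes that reached 1 FPKM in 3 or more libraries, with p-values adjusted over all of them by Benjamini-Hochberg and a gene called at an adjusted p under 0.05. Sox2 and Klf4 passed this filter and the other 8 genes did not. Fitted without a filter, limma called 0 of 56 combinations of those 8 genes with 7 comparisons, and 0 had an unadjusted p under 0.05. The lowest adjusted p there was 0.127, and the largest change was 0.396 on the log2(FPKM + 1) scale. A p that misses the threshold does not show that levels were equal.

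Sox2 (chromosome 3 from 34650405 to 34652461), the SOX partner of OCT4, was the one core factor with a clear level in the teratoma sort. It stood at 4.42, 4.16 and 1.07 FPKM in teratoma and at 0.886, 1.32 and 1.63 in embryo. In transplant it was at 0.116, 0 and 0, and in adult at 0.0576, 0.0583 and 0.0582. All 6 teratoma and embryo libraries were above all 6 libraries from postnatal muscle, while teratoma replicate 3 lay within the embryo range. The means were 3.22 ± 1.86 in teratoma and 1.28 ± 0.373 in embryo (SD, n = 3), and adult and transplant shared the low end. Sox2ot, a noncoding gene on the same strand that spans Sox2, was lower in each teratoma and embryo library, at 0.792, 0.790 and 0.270 in teratoma and 0.0669, 0.403 and 0.453 in embryo.

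Sox2 fell from teratoma to transplant by 1.90 on the log2(FPKM + 1) scale (SE 0.34, limma adjusted p = 0.0021), in a comparison in which 22.6% of all tested genes were called and 18.5% were called as lower. It was also higher in teratoma than in adult, by 1.87 (SE 0.34, limma adjusted p = 0.000865), where 45.4% of genes were called. Sox2 reached 1 FPKM in 5 libraries and passed the filter only with its teratoma libraries. Both of these differences were therefore in part set by the filter. Fitted without a filter, they were -1.90 and 1.87 (limma adjusted p = 0.0032 and 0.0014). Transplant was lower than embryo by 1.12 (limma change -1.12, adjusted p = 0.0176, 42.5% of genes called), and adult lower than embryo by a similar amount (-1.09, limma adjusted p = 0.0157, 52.8% called). Both of the last calls were lost without embryo replicate 3 (limma adjusted p = 0.0573 and 0.052), and the one against adult also under quantile normalization (-0.67, adjusted p = 0.131).

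Teratoma and embryo could not be separated for Sox2 over all libraries. The change was 0.78 (95% interval 0.05 to 1.51, limma adjusted p = 0.111), in a comparison that called 26.0% of genes. Without teratoma replicate 3 it was 1.23 and called (limma adjusted p = 0.00579). Transplant and adult, the neighbours at the low end, differed by -0.03 (95% interval -0.76 to 0.70, limma adjusted p = 0.961, 44.2% of genes called), and at these levels a true difference would not have been detectable on this scale. With both stem-cell-derived groups set against both native ones, Sox2 changed by 0.37 (95% interval -0.14 to 0.89, limma adjusted p = 0.24, 36.8% called), and was called without teratoma replicate 3 (0.60, limma adjusted p = 0.0186).

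**Figure D2:**
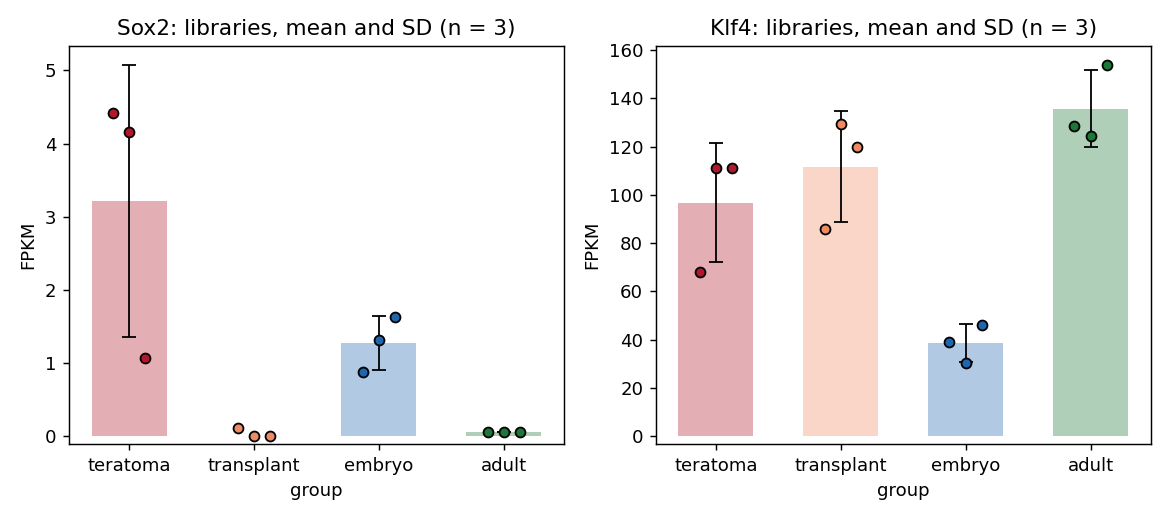
FPKM of Sox2 (left) and Klf4 (right) in the 4 groups, with a point for each library and, where no library was listed at 0, a bar for the group mean and a line for 1 SD to either side (n = 3). Sox2 is near 0 in transplant and adult and spreads from 1.07 to 4.42 in teratoma, whereas Klf4 is lowest in embryo and highest in adult.

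Klf4 (chromosome 4 from 55527143 to 55532466), a zinc finger factor able to help reprogramme fibroblasts to pluripotency, was abundant in every library and most abundant in native adult cells. It stood at 68.2, 111 and 111 FPKM in teratoma, 85.8, 129 and 120 in transplant, 39.2, 30.6 and 46.2 in embryo and 129, 124 and 154 in adult. The embryo libraries were all below the other 9, and the stem-cell-derived libraries overlapped each other and, for transplant, the adult range. By mean ± SD (n = 3) the order was adult (136 ± 16.0), transplant (112 ± 22.9), teratoma (96.8 ± 24.8) and embryo (38.7 ± 7.81). Its mean was above that of 95.4% of symbols in embryo, 98.1% in teratoma and 98.5% in both transplant and adult.

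Embryo was the group that stood apart for Klf4. The gene was higher than in embryo by 1.29 in teratoma (SE 0.23, limma adjusted p = 0.00165), by 1.50 in transplant (SE 0.23, limma adjusted p = 0.000252) and by 1.80 in adult (SE 0.23, limma adjusted p = 4.23e-05). These 3 comparisons share the embryo libraries. Shares of genes called as higher in them were 15.5%, 14.9% and 15.8%. All 3 calls were kept under all 20 alternatives tried.

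The change from teratoma to transplant differed from that from embryo to adult (difference -1.58, limma adjusted p = 0.0027, in a test that called 38.9% of genes and was chosen after the values were seen).

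Between the other groups Klf4 was not called. Teratoma against adult gave -0.51 (95% interval -1.01 to -0.01, limma adjusted p = 0.0876), and the call was reached under median-ratio scaling (-0.87, limma adjusted p = 0.0132). Transplant against adult gave -0.29 (95% interval -0.79 to 0.21, limma adjusted p = 0.325) and transplant against teratoma 0.22 (95% interval -0.28 to 0.72, limma adjusted p = 0.54). Stem-cell-derived against native gave 0.50 (SE 0.16, limma adjusted p = 0.0313), a mean over an embryo group below and an adult group above the derived ones. That call was lost without any 1 of 7 libraries: teratoma replicates 2 and 3, transplant replicates 2 and 3, embryo replicate 2 and adult replicates 1 and 2 (changes from 0.42 to 0.48, limma adjusted p from 0.064 to 0.078).

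**Figure D3:**
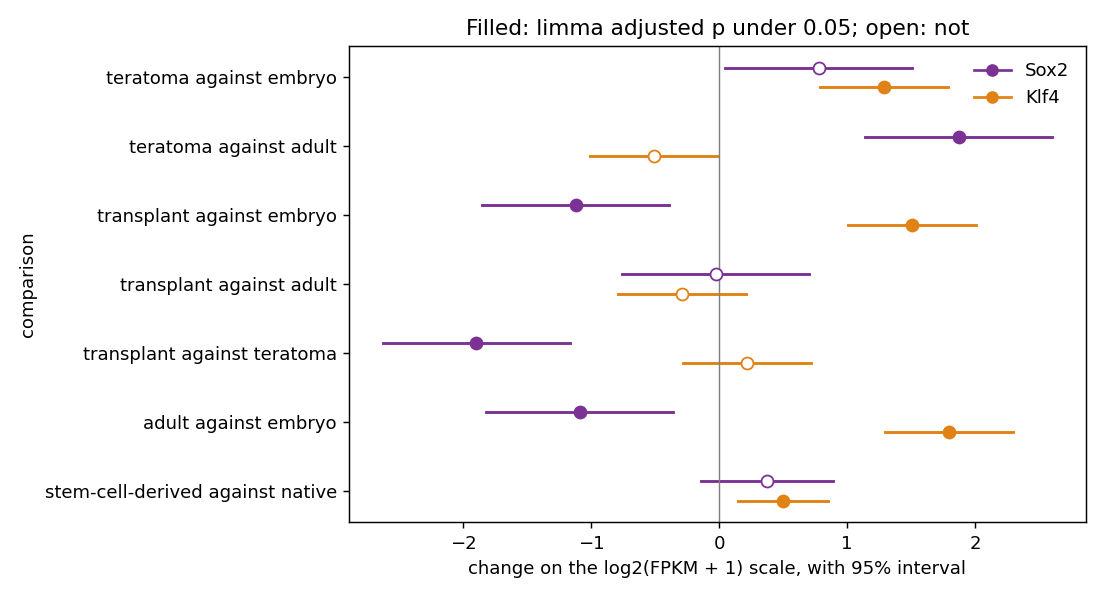
Change of Sox2 and Klf4 in 7 comparisons, on the log2(FPKM + 1) scale with 95% intervals from limma; positive values are higher in the group named first, and filled points were called. Sox2 is called in the 4 comparisons that set teratoma or embryo against transplant or adult, and Klf4 in the 3 against embryo and in stem-cell-derived against native.

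The genes whose pattern over the 12 libraries was most like that of Sox2 were sought next. By Pearson correlation of log2(FPKM + 1), which follows the differences between the groups and is given as a description, they were Pard6b (0.99), a polarity protein, Mmd2 (0.97), Epcam (0.97), an epithelial adhesion molecule, A2m (0.96) and Dsc2 (0.96), a desmosomal cadherin. Epcam stood at 27.4, 34.4 and 5.76 FPKM in teratoma, 0.663, 2.05 and 4.36 in embryo, 0 in all 3 transplant libraries and 0.0558, 0.229 and 0.122 in adult. As for Sox2, teratoma replicate 3 was the lowest of its group and embryo replicate 3 the highest of its own. For Klf4 the closest were Serpinb6a (0.97), Cd82 (0.97), a tetraspanin, Rnf19b (0.96), Msn (0.96), which encodes moesin, and Sgk1 (0.96), a stress- and glucocorticoid-induced kinase.

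Markers of other cell types that use Sox2 differed between the same groups, in part with Sox2 and in part against it. In the list of 13 genes of endoderm and simple epithelium, 10 had a mean of at least 1 FPKM in teratoma, 6 in embryo, 1 in adult and 0 in transplant. Their summed level was 195 to 499 FPKM in teratoma, 4.45 to 22.6 in embryo, 0.887 to 2.41 in transplant and 2.06 to 4.20 in adult. From teratoma to transplant 8 of 8 tested members fell (median -4.69, against -0.28 over all tested genes, of which 18.5% were called as lower). Among them were Ttr, the thyroid hormone carrier (216, 204 and 91.0 FPKM in teratoma, listed at 0 in the other 9 libraries), and the keratins Krt8 and Krt18 (-5.32 and -5.40). Ttr passed the filter through its teratoma libraries alone, and Epcam, Cdh1, Krt19 and Foxa1 passed only with them. For these genes a fall was largely set by the filter, so the count is a description. Vil1 was at 0 in all 4 groups, and Epcam, Ttr, Afp, Foxa2, Cldn6 and Apoa1 were also at 0 in transplant. The 12 neural markers summed to 22.0 to 41.8 FPKM in teratoma, 28.7 to 87.0 in embryo, 2.86 to 5.03 in transplant and 0.958 to 3.91 in adult, and 3, 5, 1 and 1 of them had a mean of at least 1 FPKM. Of 5 tested neural markers 2 fell from teratoma to transplant (median -0.53), where 18.5% of all genes were called as lower. Against embryo 0 were higher and 1 lower in teratoma (median -0.88, against 0.01 over all genes, of which 26.0% were called). Sox2 had the opposite sign there but was not called, and counts this small are a description only. The 8 Schwann and glia markers were highest in adult, where Sox2 was near 0, with 31.3 to 47.6 FPKM in adult, 13.7 to 38.9 in embryo, 10.2 to 11.1 in teratoma and 2.04 to 8.63 in transplant. Fabp7, a fatty acid binding protein of neural progenitors, led the neural list in teratoma (31.4, 13.2 and 14.7) and in embryo (13.2, 44.4 and 69.6). Among the defining neural genes Hes5 was at 0 in teratoma, Olig2, Sox1 and Nkx2-2 in embryo, and Olig2, Sox3 and Neurod1 in transplant. In teratoma, Sox1 was at 0.459, 0.737 and 0.471 (at most 0.0593 elsewhere) and Olig2 at 0.815, 1.11 and 0 (listed at 0 elsewhere). Tubb3 and Hes5 were instead highest by mean in embryo (2.70 and 6.85). The part of such cells in the Sox2 level was not tested.

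**Figure D4:**
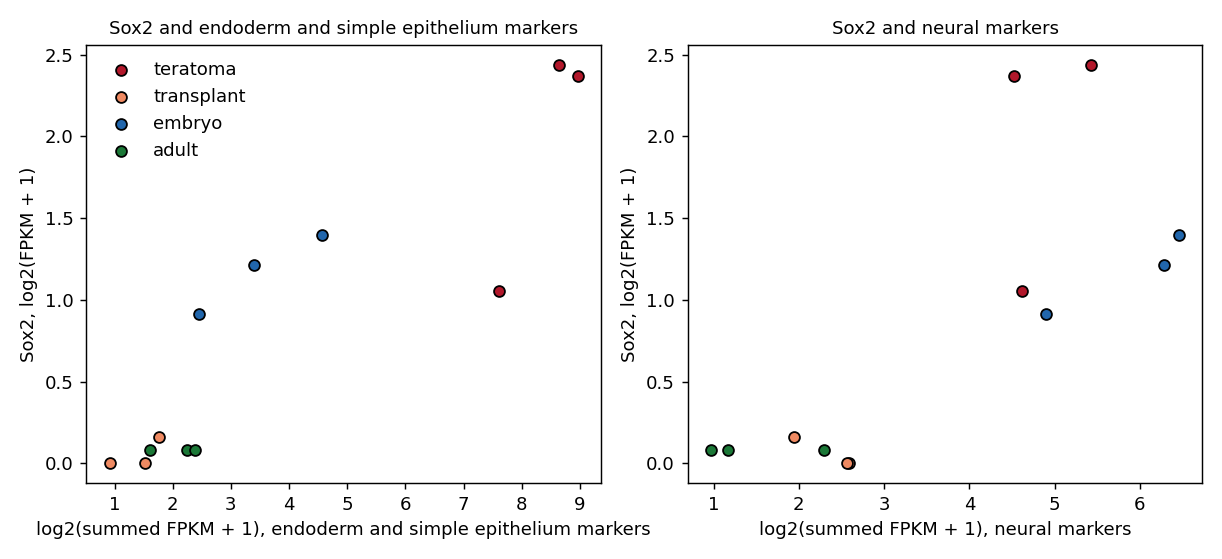
Sox2 level (vertical) against the summed level of 13 endoderm and simple epithelium markers (left) and 12 neural markers (right), each as log2(FPKM + 1), with 1 point per library. Teratoma replicates 1 and 2 are highest for Sox2 and for the epithelial sum, embryo replicates 2 and 3 are highest for the neural sum, and the 6 libraries from muscle sit at the lower left of both panels.

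The muscle identity of the sorts was read on 9 marker genes (Pax7, Myf5, Myod1, Myog, Des, Cdh15, Chrna1, Itga7 and Vcam1). All 9 had a mean of at least 1 FPKM in each group, with sums of 391 to 451 FPKM in teratoma, 436 to 585 in transplant, 140 to 194 in embryo and 838 to 998 in adult. Germ cells also express several of the 10 genes. Of 10 germ cell markers, Dazl, Sycp3 and Stra8 were listed at 0 in all 12 libraries and Ddx4, Nanos3 and Mael stayed below 1 FPKM. The other 4, which other lineages use too, did reach it. All 3 that could be tested (Kit, Prdm1 and Tfap2c) fell from teratoma to transplant, as Sox2 did. Their median was -1.78, against -0.28 over all genes, of which 18.5% were called as lower. Prdm1 and Tfap2c passed the filter only with their teratoma libraries, so their fall was in part set by the filter. Median-ratio scaling tested 2 of the 3 and called 2 as lower, and quantile normalization called 2 of 3. Kit, a receptor tyrosine kinase, was at 4.80, 3.20 and 1.32 in teratoma, 2.37, 3.31 and 5.83 in embryo, and at most 0.451 in the libraries from muscle. Tfap2c reached 1.11 in teratoma and 1.80 in embryo, and Tdrd1 reached 2.10 in embryo. Of 8 trophoblast markers, Cdx2, Ascl2, Prl3d1 and Tpbpa were at 0 throughout and Hand1 stayed below 1 FPKM. Plac1 was at 2.14, 0.987 and 0 in teratoma, 1.89, 4.25 and 5.44 in embryo and 0 in the 6 libraries from muscle, while Gata3 reached 1.68 in transplant and Elf5 1.13 in teratoma. Prdm1, a transcriptional repressor, led the germ cell list in teratoma at 4.65, 6.07 and 3.98 FPKM, with at most 0.651 in transplant, 0.553 in embryo and 1.17 in adult. Prdm1 fell from teratoma to transplant by 2.17 (limma adjusted p = 0.000562).

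The wider naive network also held both genes near 0 and genes with clear levels. Of 28 further naive genes, 18 stayed below 1 FPKM in every library. Nr0b1, Dppa3, Dppa4, Tcl1, Eras and Zscan4c were listed at 0 in all 12, while Dppa2, Prdm14, Fgf4, Fbxo15, L1td1, Tdh, Zscan10, Nr5a2, Dnmt3l, Lin28a, Trim71 and Ooep had values below 1 in some. Of these, Trim71 was above 0 in 10 libraries, with 0.943 in embryo replicate 1 as its highest value, and L1td1 was at 0.489, 0.514 and 0.653 in embryo. Nr5a2 was above 0 in all 6 teratoma and embryo libraries (0.0498 to 0.808) and listed at 0 in all 6 from muscle, the split also seen for Sox2. Only 8 of the 28 passed the filter, and of these 5 were higher and 0 lower in stem-cell-derived than in native cells (median 0.54, against 0.11 over all genes, of which 23.6% were called as higher). They were Klf5, Klf2, Tbx3, Jam2 and Phc1. Against embryo alone the count was 1 higher and 1 lower of 8 for teratoma, where 26.0% of all genes were called, and 1 higher and 2 lower for transplant, where 42.5% were, so neither share was above that of all genes. Against adult 8 of 8 were higher in teratoma (median 1.57, against 0.50 over all genes, of which 4628 of 12699 were called as higher). In transplant 4 of 8 were higher than in adult (median 0.85, against 0.23, with 3462 of 12699 called as higher). Against adult, quantile normalization called 5 of the 8 as higher in teratoma and 3 in transplant. From teratoma to transplant 4 of 8 were lower and 0 higher (median -0.76, against -0.28 over all genes, of which 18.5% were called as lower). Tfcp2l1, 1 of the 8, was at 0.651, 1.72 and 2.63 in teratoma and at most 0.150 in transplant. It passed the filter only with its teratoma libraries. Whether such levels were left from the starting cells was not tested.

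Klf5, a Krüppel-like factor of epithelia and pluripotent cells, stood out in teratoma, at 154, 113 and 81.9 FPKM. It was at 37.7, 56.4 and 59.7 in transplant, 10.2, 13.5 and 20.2 in embryo and 45.1, 32.0 and 24.7 in adult, so all teratoma libraries were above all others. It fell from teratoma to transplant by 1.15 (limma adjusted p = 0.0191) and was higher in teratoma than in embryo by 2.91 (limma adjusted p = 4.11e-05). Klf2, a relative also used in endothelium and lymphocytes, separated adult from the rest, with 7.21, 2.87 and 4.65 in adult and from 22.1 to 51.0 elsewhere. Tbx3, a T-box repressor also used in limb and glands, was at 18.7 ± 4.90 in teratoma, 8.31 ± 0.797 in transplant, 2.43 ± 0.160 in adult and 15.0 ± 4.85 in embryo. It fell from teratoma to transplant by 1.06 (limma adjusted p = 0.00888). Jam2, a junction protein, was lowest in adult (1.25 ± 0.593 FPKM) and between 3.58 ± 0.443 and 4.03 ± 0.912 in the other groups.

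**Figure D5:**
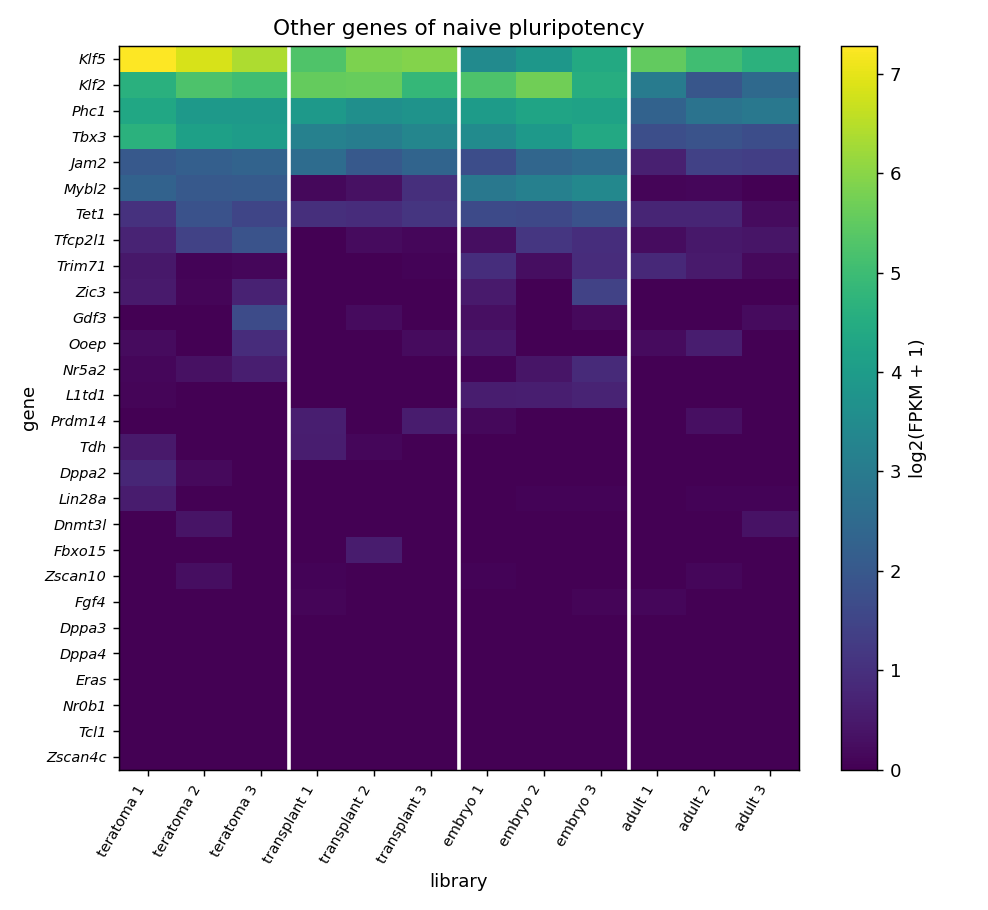
Heat map of 28 further genes of naive pluripotency (rows, ordered by mean) in the 12 libraries (columns, white lines between groups), coloured by log2(FPKM + 1). Klf5, Klf2, Phc1 and Tbx3 are the brightest rows, and the 6 rows at the bottom were listed at 0 in every library.

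Genes of the next developmental steps were low as well. Of 13 genes of the primed epiblast, the state after implantation, 6 passed the filter, and 0 were higher and 2 lower in teratoma than in embryo (median -0.07), a share near the 26.0% of all genes called there. Foxd3, a forkhead factor also used in neural crest, was at 0, 0 and 1.02 FPKM in teratoma, 0, 0 and 0.954 in transplant, 2.22, 5.47 and 4.53 in embryo and 1.17, 0.434 and 0.634 in adult, and Sall2 was lower in teratoma by 1.10 (limma change -1.10, adjusted p = 0.0116). Zic2, a zinc finger factor of epiblast and neural tissue, had 1.80, 1.66 and 1.11 in teratoma and 1.16, 0 and 1.84 in embryo, with 0 in all libraries from muscle. Otx2, which did not pass the filter, was at 0.220, 0.235 and 1.95 in teratoma and listed at 0 elsewhere. Zic5, Lefty1 and Nodal each reached 1 FPKM in 1 library, from teratoma (2.11, 1.57 and 1.22). Sox3 did so in embryo replicate 3 alone (2.12), and Fgf5 and Lefty2 in no library. Etv4, an effector of FGF signals, was at 2.90 ± 1.04 in teratoma, 5.12 ± 1.15 in transplant, 0.832 ± 0.423 in adult and 3.07 ± 1.57 in embryo. The de novo methyltransferase gene Dnmt3b had its highest level in adult, at 2.80 ± 0.192, against 1.08 ± 0.402 in teratoma, 0.728 ± 0.157 in transplant and 1.23 ± 0.238 in embryo. Of 11 genes of the primitive streak and early endoderm, 7 stayed below 1 FPKM throughout, among them T, Eomes and Mixl1. Of these 3, T was at 0.767, 0.738 and 0 in teratoma and at most 0.134 elsewhere. Gata6 led that list in teratoma with 3.41 ± 0.828 FPKM, but was higher by mean in native embryo (5.88, 2.40 and 11.6), with 2.96, 2.53 and 0.751 in transplant and 0, 0.891 and 0.257 in adult. Gata4 was at 1.11, 0.976 and 1.39 in teratoma, 0, 0 and 0.942 in embryo and at most 0.0728 in libraries from muscle. Foxa2 was at 0.833, 1.42 and 0.414 in teratoma, and its single other value above 0 was 0.0702 in embryo replicate 1.

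The LIF pathway, which maintains Klf4 in embryonic stem cells, was present in all groups. All 6 of its genes were tested, and 5 were higher and 0 lower in teratoma than in embryo (median 1.13, against 0.01 over all genes, of which 15.5% were called as higher). In transplant against embryo 4 were higher and 0 lower (median 0.88, against -0.24, with 14.9% called as higher), and in adult against embryo 5 and 1 (median 1.52, against -0.42, with 15.8%). Klf4 was higher in the same 3 comparisons, which share the embryo libraries. Lif itself, the cytokine, was at 17.2, 17.1 and 13.1 FPKM in teratoma, 2.69, 5.01 and 2.67 in transplant, 0.718, 0 and 0 in embryo and 14.8, 14.7 and 11.1 in adult. Stat3, its transcription factor, ran from 31.6 ± 7.70 in embryo to 114 ± 13.4 in adult, with 84.3 ± 13.5 in teratoma and 57.9 ± 9.30 in transplant. The feedback inhibitor Socs3 was highest in transplant, at 239 ± 32.7, with 83.7 ± 22.5 in teratoma, 43.7 ± 2.67 in adult and 20.6 ± 2.55 in embryo, and the receptor subunit gene Il6st highest in adult, at 109 ± 7.39.

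Klf4 can also be induced as an immediate early gene, and genes of that kind differed between the same groups. Of 16 such genes, all tested and all with a mean of at least 1 FPKM in each group, 14 were higher and 0 lower in teratoma than in embryo (median 1.19), where 15.5% of all genes were called as higher. Against embryo, 13 were higher and 0 lower in transplant (median 1.99, with 14.9% of all genes called as higher) and 7 and 4 in adult (median 0.33, with 15.8% called as higher and 52.8% called in either direction). Their sum was 3524 to 4547 FPKM in teratoma, 5474 to 6571 in transplant, 1389 to 2006 in embryo and 2650 to 2671 in adult. The listed genes differed in their order of groups. Myc was highest in adult (207 ± 22.0 FPKM) and lowest in embryo (14.9 ± 2.56), as Klf4 was, while Fos, Junb, Zfp36 and Egr1 were highest in transplant. Fos and Junb, subunits of AP-1, were higher in stem-cell-derived than in native cells by 1.97 and 1.72, and the mRNA-decay factor Zfp36 by 1.73 (limma adjusted p at most 2.05e-05). The zinc finger gene Egr1 was higher by 1.26 (limma adjusted p = 2.05e-05). The part of such induction in the Klf4 level was not tested.

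Cell types in which Klf4 is known were also present by their markers. The 6 fibroblast markers summed to 1187 to 2210 FPKM in teratoma, 2624 to 4246 in transplant, 1182 to 1700 in embryo and 659 to 913 in adult. The 8 leukocyte markers summed to 52.6 to 142 in teratoma and at most 29.1 in any library of the other groups, and the 7 endothelial markers to 43.8 to 54.0 in teratoma and at most 37.7 elsewhere. The 6 squamous epithelial markers, whose tissue uses Klf4 in its outer layers, summed to 37.0 to 155 in teratoma, 4.13 to 17.2 in transplant, 3.85 to 47.4 in embryo and 2.02 to 3.14 in adult. Of the genes of these 4 lists, Ptprc, Tyrobp and Adgre1 were listed at 0 in all 3 adult libraries, Tyrobp in embryo and Krt15 in transplant and adult. The part of such cells in the Klf4 level was not tested.

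Relatives of the 10 genes, from the same gene families, were the last list. Klf2, Klf5, Klf6, Sall2, Sox3 and other genes of this list also stand in the lists above. Of 19 relatives, 16 reached 1 FPKM in at least 1 library, and 7 were higher and 1 lower of 12 tested in stem-cell-derived against native cells (median 0.49, against 0.11 over all genes, of which 23.6% were called as higher). The relatives with the highest levels were those of Klf4, itself abundant in every library. Klf6 (169 ± 22.3 in teratoma, 103 ± 15.4 in embryo), Klf5 and Klf10 (60.8 ± 12.4 in teratoma, 20.4 ± 2.66 in transplant) were the highest in teratoma. Klf13 was higher in stem-cell-derived cells by 0.92 (limma adjusted p = 0.000692). Esrra, relative of Esrrb and a regulator of mitochondrial genes, was at 4.29, 5.17 and 3.71 FPKM in transplant and at 2.81, 0 and 2.52 in teratoma, with 2 of 3 libraries at 0 in embryo and in adult. Sox1, Cfc1 (relative of Tdgf1) and Pou2f2 stayed below 1 FPKM in every library.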

How the data were processed

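FPKM values for 23746 gene entries in 12 libraries were deposited by the authors as 1 table. Tools listed without roles in the submitters' processing notes are Cufflinks 2.2.1.0, TopHat 0.7, Partek and CASAVA 1.8.2, and the build listed is mm10. Per the labels' protocols, RNA was extracted on columns with DNase treatment and made into stranded total-RNA libraries with a low-input kit. Not given in the sources used here were annotation, filters, treatment of shared reads and read depth, and low values of 2 libraries showed no common step from which depth could be read. Columns were matched to libraries by their description labels, and values of 240 repeated symbols, none of the 10 genes among them, were summed to 23284 symbols.

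limma 3.58.1 in R 4.3.3 fitted log2(FPKM + 1) with 4 group means over all 12 libraries, with an intensity trend, for genes at 1 FPKM or more in at least 3 libraries. The pseudocount of 1 understates changes of low genes. On simulated data for the contrast of teratoma with embryo, tested over 12699 genes, the fit called 31 of 100 genes changed by 1, 87 of 100 changed by 2 and 10 of 12499 unchanged ones. The changed genes were drawn from those with a mean log2(FPKM + 1) over 2. Sox2 and the lower members lie below that level, so these rates do not cover them. Alternatives tried were quantile normalization, median-ratio scaling, 0.1 as pseudocount, a filter at a mean of 5 FPKM or none, separate fits of the groups compared, the replicate number as a block, the highest value of a repeated symbol, and leaving out each library. The members, the gene lists and the tests were chosen with earlier results of these data known. All 10 members are named. Of each of the 6 wider lists (naive, primed, gastrulation, LIF pathway, relatives and immediate early genes) the text names up to 4 called genes with the largest change in stem-cell-derived against native cells and the 3 with the highest teratoma level. Other named list genes, cell type markers included, were chosen after their values were seen. The 5 genes most like a member were sought for those with a group mean of at least 1 FPKM. Positions are from GENCODE M21 (mm10) and promoters from RefSeq (GRCm38.p6).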

Additional observations from a re-analysis of the deposited data

Results flagged for a closer look

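Klf4 changed differently along the native and the stem-cell-derived path from developing tissue to postnatal muscle. It went from 38.7 ± 7.81 FPKM in embryo to 136 ± 16.0 in adult (n = 3), and from 96.8 ± 24.8 in teratoma to 112 ± 22.9 in transplant. The difference between the change from teratoma to transplant and the change from embryo to adult was -1.58 on the log2(FPKM + 1) scale (SE 0.32, limma adjusted p = 0.0027), and 38.9% of all tested genes differed in this way. This test was chosen after the values were seen. It was called under all 19 alternatives tried, from -1.81 to -1.32 (limma adjusted p at most 0.00849). For Sox2 the same difference was -0.81 (limma adjusted p = 0.196), called under 1 of 18 alternatives, without teratoma replicate 3 (-1.26, adjusted p = 0.0135). Groups of 3 libraries were too small to single out a library within a group.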

How the results depend on the processing

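Of the 14 changes of Sox2 and Klf4 across 7 comparisons, 1 reversed: Klf4 in transplant against teratoma, which was not called, was -0.015 without teratoma replicate 1 (-0.015 to 0.40 when leaving out each library). A filter at a mean of 5 FPKM removes Sox2, so that 0 of the 10 genes were called in teratoma against adult and in transplant against teratoma and 1 in transplant against embryo and in adult against embryo. That filter, which tests fewer genes, called 2084 genes in teratoma against embryo, 3720 in teratoma against adult and 4370 in adult against embryo, against 3308, 5763 and 6699. Median-ratio scaling called 2 of the 10 genes in teratoma against adult, and quantile normalization 1 in adult against embryo; the cause was not tested. When leaving out each library, the genes called ranged from 2123 (without teratoma replicate 2) to 3184 in teratoma against embryo and from 1524 (without teratoma replicate 1; 1803 without transplant replicate 1) to 3285 in transplant against teratoma. Of the 10 genes, 1 to 2 were called in teratoma, transplant and adult against embryo, and 0 to 1 in stem-cell-derived against native. A pseudocount of 0.1 enlarged the Sox2 changes to 4.16 in teratoma against adult, -3.38 in transplant against embryo, -4.45 in transplant against teratoma and -3.09 in adult against embryo.

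Scaling moved the share of called genes that were higher. With FPKM as deposited, median-ratio scaling and quantile normalization it was 80.3%, 61.7% and 48.7% in teratoma against adult, 35%, 51.1% and 46.6% in transplant against embryo, 18.5%, 43.4% and 45.6% in transplant against teratoma, and 30%, 42.9% and 49.3% in adult against embryo. The median change of all genes moved with it, from 0.50 to 0.24 and -0.05 in teratoma against adult and from -0.42 to -0.16 and -0.01 in adult against embryo. The list medians given above kept their sign under both scalings. Immediate early genes in adult against embryo went from 7 higher and 4 lower to 10 and 2 with median-ratio scaling. Replicate numbers did not pair the libraries: deviations of 18 same-numbered pairs correlated between -0.10 and 0.10, and 3 of 12 libraries correlated best with their own number. With the replicate number as a block, 3009 genes were called in teratoma against embryo and 2466 in transplant against teratoma, and no call of Sox2 or Klf4 changed. Separate fits of the groups compared were not run for stem-cell-derived against native, which uses all 4 groups. Read depth is unknown, so levels below 1 FPKM carry no interval.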
